A study of Mus musculus with 6 samples.

Results

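The genes of the secretory machinery of the endoplasmic reticulum (ER) were described in bone marrow progenitors that had lost PU.1, the hematopoietic transcription factor encoded by *Spi1*. They were chosen by name: every gene with a symbol that begins with *Sec*, *Ssr*, *Pdia*, *Srp*, *Spcs* or *Tmed* and a digit, or with *Copa*, *Copb*, *Copg*, *Cope* or *Copz*, together with *Hspa5*, *Hsp90b1*, *Calr* and *Canx*. Of 10553 genes named by the probes of the authors' log2 table, 57 met this rule. In the RefSeq annotation 72 protein-coding genes meet it, and the other 15, *Canx* among them, had no probe under their name here and were not analysed. *Sec14l1* and *Sec14l2*, which encode lipid-binding proteins, met the rule by name only, and 55 members remained without them. Expression was measured in 3 pools of PU.1-deficient LSK cells (*Spi1*fl/fl *MxCre*+) and 3 pools of wild-type LSK cells (*Spi1*+/+ *MxCre*+), each on 1 Illumina MouseWG-6 BeadChip. LSK cells are the lineage-negative, Sca-1-positive, c-Kit-positive fraction of bone marrow, which holds the stem cells and multipotent progenitors. All mice were on a C57BL/6 background and 6 to 12 weeks old, and both genotypes carried *MxCre*, a Cre recombinase under an interferon-responsive promoter that is active in many cell types. Both had received polyIC, which induces it, in a pair of injections of 5 µg per g of body weight with 3 days between, and the LSK cells were isolated 14 days after the treatment according to the methods of the study. Each pool held cells of many mice, and the study describes the pools as independent samples.

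Proteins for secretion, for granules and for the cell surface enter the ER as they are made. The signal recognition particle brings the ribosome to the Sec61 channel, signal peptidase removes the signal peptide, and chaperones and protein disulfide isomerases fold the chain. Cargo then leaves for the Golgi in COPII vesicles, while COPI vesicles bring escaped ER proteins and receptors back. Many of these genes are known targets of the unfolded protein response, the program that enlarges ER capacity when folding demand is high, and granulocyte precursors and plasma cells are textbook examples of blood cells with a heavy secretory load.

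The single probe named for *Spi1* had a log2 intensity of 6.62, 5.80 and 6.00 in the PU.1-deficient pools, against 8.54, 8.51 and 8.69 in the wild-type pools. *Spi1* was thus lower in all 3 PU.1-deficient pools (log2 fold change -2.44, standard error 0.24, adjusted p = 0.00112 from limma). Arrays had median intensities of 89.5 to 116.5 with 15639 to 18174 probes detected, and their small number sets the precision of all values given. Other cell programs moved with the genotype. Of 11 genes of neutrophil granules 8 were higher and 1 was lower, with summed linear intensities of 57231 to 74539 in PU.1-deficient pools, against 2577.5 to 4298.2 in wild-type pools. Of 7 genes of primary granules 5 were higher and 0 lower, with sums of 98072 to 106750 against 27518 to 55073 in wild-type pools. All 5 megakaryocyte genes and all 5 erythroid genes were lower, and of 5 mast cell and basophil genes 2 were higher. Of 6 genes that mark LSK cells 3 were lower, and all 6 lay below the wild-type pools in every PU.1-deficient pool. Their summed linear intensities were 5948.9 to 6692 in PU.1-deficient pools, against 10821 to 13297 in wild-type pools. *Kit* was detected in all 6 pools (log2 fold change -0.44, adjusted p = 0.221 from limma). *Slamf1* was undetected in the PU.1-deficient pools and detected in each wild-type pool. Of the plasma cell genes only *Sdc1* and *Xbp1* had a probe, and *Sdc1* was undetected in the PU.1-deficient pools and detected in 1 wild-type pool. *Xist*, which silences an X chromosome in female cells, was at 9.94, 10.01 and 11.06 in PU.1-deficient pools, against 4.48, 4.48 and 5.18 in wild-type pools, and the Y-linked *Kdm5d* at 7.09, 6.89 and 6.40 against 7.63, 7.60 and 7.80 in wild-type pools. The sex makeup of the pools and the genotype cannot be told apart. In these bulk samples a change in the share of a cell type and a change in RNA per cell cannot be told apart either, and the part of the granule programs in the results below was not tested.

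In PU.1-deficient LSK cells 7 of the 57 members were higher and 0 were lower at an adjusted p under 0.05 in limma. This is 12.3% of the members, beside 6.61% of all 10528 genes tested that were higher and 5.59% that were lower. *Tmed3*, a cargo receptor of ER-to-Golgi vesicles, had the largest change at 4.97-fold. The others were *Pdia5*, *Copz2*, *Sec24d*, *Sec22c*, *Sec61b* and *Sec22b*, at 2.46-fold to 1.61-fold. The remaining 50 members did not pass the test. An unadjusted limma p under 0.05 was found in 20 of the 57 members, beside 2853 of all 10528 genes tested. By direction alone, 49 members (86.0%) had a log2 fold change above 0, beside 45.8% of all genes, and 39 did when arrays were scaled to equal medians. In 27 members (47.4%) each PU.1-deficient pool lay above each wild-type pool, beside 16.2% of all genes. In 2 members, *Sec24b* and *Sec61a2*, each PU.1-deficient pool lay below, beside 18.3% of all genes. The median log2 fold change of the members was 0.35, against -0.04 for all genes, and single members ran from -0.49 to 2.31. Measured against the wild-type mean of each member, the median member stood at 0.40, 0.22 and 0.32 in the PU.1-deficient pools and at 0.08, -0.06 and -0.01 in the wild-type pools.
The difference in direction was present at both ends of the signal range. Of the 29 members with a probe at or above the members' median signal 27 had a positive log2 fold change, beside 41.2% of the 2865 genes with that signal, and 2 were higher (6.90%, beside 6.77%). Of the 28 members below that signal 22 were positive, beside 47.6% of 7663 genes, and 5 were higher (17.9%, beside 6.55%).
The number of members higher fell to 1 when arrays were scaled to equal medians rather than quantile normalized, which is 1.75% of the members beside 3.32% of all genes. That setting moved the median of all genes to -0.27 and that of the members to 0.17, so that the members stood 0.44 above all genes, against 0.39 with quantile normalization. Of all genes past the threshold 35.6% were then higher, against 54.2% with quantile normalization. The number also fell to 1 when PU.1-deficient pool 1, wild-type pool 2 or wild-type pool 3 was left out (1.75% of the members, beside 4.31%, 3.98% and 3.77% of all genes), and to 2 when PU.1-deficient pool 3 was (3.51%, beside 4.55%). The share of members higher was thus below that of all genes in these 5 settings. It was above it without PU.1-deficient pool 2 (10.5%, beside 5.88%) and without wild-type pool 1 (12.3%, beside 5.82%).

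**Figure D1:**
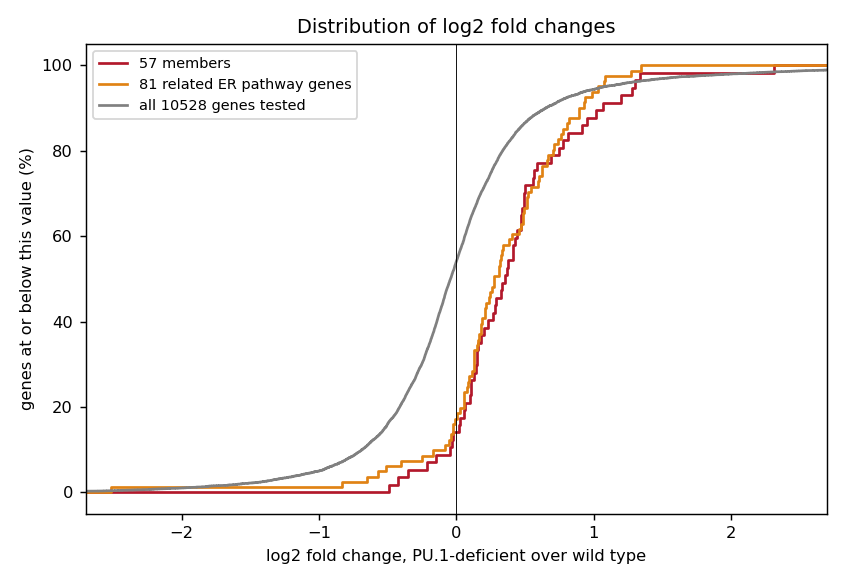
Cumulative share of genes (vertical axis, percent) at or below a given log2 fold change, PU.1-deficient over wild type (horizontal axis), for the 57 members, 81 related ER pathway genes and all 10528 genes tested. The member curve lies to the right of that of all genes over most of the range, with medians of 0.35 and -0.04.

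The 7 members that passed the test had no overlap between the genotypes and were detected in all 6 pools. *Tmed3* kept its call in all 16 alternatives run, with log2 fold changes of 2.11 to 2.60. The calls of the other 6 were lost with scaling to equal medians and when any of PU.1-deficient pool 1, wild-type pool 2 and wild-type pool 3 was left out. Those of *Pdia5*, *Sec24d*, *Sec61b*, *Sec22b* and *Sec22c* were also lost without PU.1-deficient pool 3, that of *Sec22b* without wild-type pool 1, and that of *Sec22c* without PU.1-deficient pool 2. With 1 pool left out the highest adjusted p was 0.0553 for *Copz2*, 0.0896 for *Sec22c*, 0.121 for *Sec24d*, 0.137 for *Pdia5*, 0.161 for *Sec61b* and 0.196 for *Sec22b*.

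**Figure D2:**
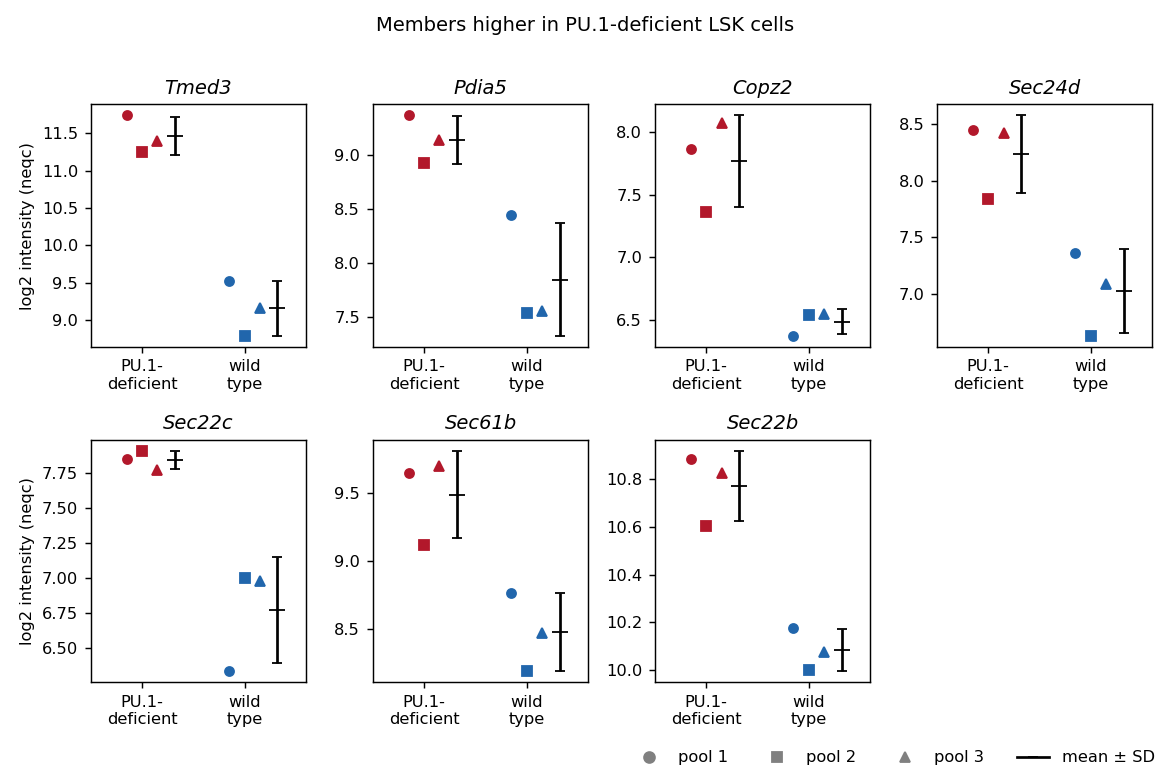
Log2 intensity after neqc normalization (vertical axes, each with its own range) of the 7 members that were higher, with 3 PU.1-deficient pools on the left and 3 wild-type pools on the right of each panel. Symbols give the pool, and bars give the mean ± SD of 3 pools. In every panel the lowest PU.1-deficient pool lies above the highest wild-type pool.

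Targeting to the ER was described by 6 members of the signal recognition particle, the complex that binds a signal peptide as it leaves the ribosome. None of the 6 passed the test, and 2 lay above the wild-type pools in every PU.1-deficient pool, beside 16.2% of all genes. All 6 log2 fold changes were above 0, beside 45.8% of all genes, with a median of 0.34. *Srp68*, which with *Srp72* forms a protein pair on the RNA of the particle, was at 8.62, 9.04 and 8.55 in PU.1-deficient pools, against 8.10, 7.94 and 7.86 in wild-type pools. The 2 sets did not overlap, and the value of *Srp68* missed the threshold (log2 fold change 0.77, standard error 0.20, adjusted p = 0.054). *Srp72* itself had a log2 fold change of 0.15 (adjusted p = 0.684). *Srp14*, part of the domain that pauses translation, overlapped between the genotypes, at 11.17, 11.15 and 11.26 in PU.1-deficient pools and 10.97, 11.13 and 11.30 in wild-type pools, and its value of 0.06 turned to -0.11 with scaling to equal medians.

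The translocon is the channel through which the growing chain enters the ER. Of its 6 members 1 was higher. In every PU.1-deficient pool 5 lay above the wild-type pools and 1 lay below, beside 16.2% and 18.3% of all genes. *Sec61b*, a small subunit of the channel, was at 9.65, 9.12 and 9.70 in PU.1-deficient pools, against 8.77, 8.19 and 8.47 in wild-type pools (log2 fold change 1.01, standard error 0.24, adjusted p = 0.0403), and both of its probes passed. *Sec61g*, the other small subunit, had 12.83, 12.72 and 12.83 in PU.1-deficient pools, against 12.32, 12.15 and 12.26 in wild-type pools. Its spread was narrow, and its log2 fold change of 0.56 had an adjusted p of 0.0804. The pore subunit is encoded by a pair of genes with opposite signs: *Sec61a1* was at 10.01, 10.60 and 10.32 in PU.1-deficient pools, against 9.67, 9.93 and 9.93 in wild-type pools (0.47, adjusted p = 0.25), and *Sec61a2* at 7.43, 7.66 and 7.67, against 7.90, 8.03 and 8.12 in wild-type pools (-0.43, adjusted p = 0.195). Neither passed the test, and the difference between them was not tested. *Sec62* and *Sec63*, which assist chains that enter after their synthesis, had values of 0.41 and 0.49 (adjusted p = 0.339 and 0.21).
The 4 members of the translocon-associated protein (TRAP) complex, which helps certain signal peptides into the channel, had a median log2 fold change of 0.50, and none passed. *Ssr4* was at 13.29, 13.63 and 13.32 in PU.1-deficient pools, against 12.89, 12.89 and 12.69 in wild-type pools, with no overlap (0.59, standard error 0.18, adjusted p = 0.0986). *Ssr4* lies on the X chromosome. *Ssr2* (0.44, adjusted p = 0.167) and *Ssr1* (0.18, adjusted p = 0.624) also had no overlap, while *Ssr3* (0.56, adjusted p = 0.317) did overlap.
Of 5 signal peptidase members 4 lay above the wild-type pools in every PU.1-deficient pool, beside 16.2% of all genes, and none passed the test. *Spcs2*, an accessory subunit, had 7.57, 7.96 and 8.07 in PU.1-deficient pools, against 7.41, 6.71 and 6.72 in wild-type pools (0.92, standard error 0.25, adjusted p = 0.0709). Its lowest PU.1-deficient pool and its highest wild-type pool were both pool 1. *Spcs1* was at 12.46, 12.13 and 12.25 in PU.1-deficient pools, against 11.94, 11.86 and 11.97 in wild-type pools (0.35, adjusted p = 0.296). The catalytic subunits *Sec11a* (0.20) and *Sec11c* (0.10) had the lowest values of the group.

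**Figure D3:**
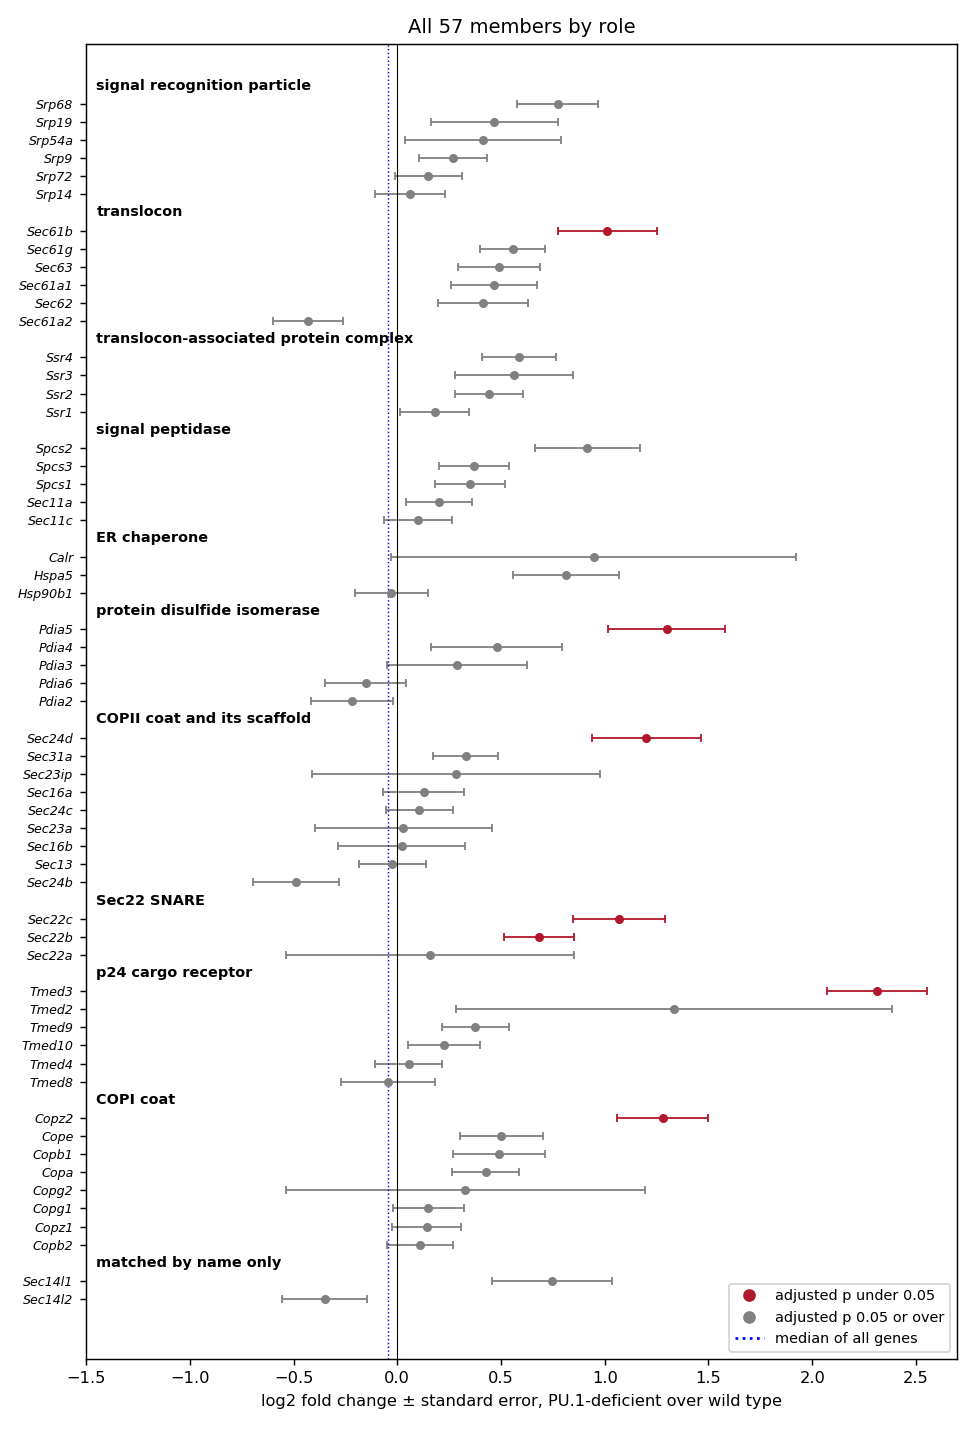
Log2 fold change of PU.1-deficient over wild-type LSK cells (horizontal axis) with its moderated standard error from limma for all 57 members, grouped by role. Red marks the 7 members with an adjusted p under 0.05 and grey the other 50, and the dotted line is the median of all genes. Points lie to the right of 0 for 49 members.

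Among the ER chaperones none of 3 passed the test. *Hspa5*, which encodes the chaperone BiP, was at 8.76, 8.73 and 9.39 in PU.1-deficient pools, against 8.51, 7.93 and 8.01 in wild-type pools. These sets did not overlap (log2 fold change 0.81, standard error 0.26, adjusted p = 0.11). *Hsp90b1*, which encodes the ER form of the HSP90 chaperone, overlapped, at 12.61, 12.43 and 12.72 in PU.1-deficient pools and 12.77, 12.48 and 12.60 in wild-type pools (-0.03, standard error 0.18, adjusted p = 0.957). *Calr*, the lectin chaperone calreticulin, varied more between pools of a genotype than between genotypes, at 10.35, 7.19 and 9.59 in PU.1-deficient pools and 9.92, 7.15 and 7.21 in wild-type pools (0.95, standard error 0.98, adjusted p = 0.663).
Of 5 protein disulfide isomerases, which form and exchange disulfide bonds, 1 was higher. *Pdia5* was at 9.37, 8.92 and 9.14 in PU.1-deficient pools, against 8.45, 7.54 and 7.55 in wild-type pools (1.30, standard error 0.28, adjusted p = 0.0311). Of its 3 probes 2 passed, and the other gave 0.92 (adjusted p = 0.504). *Pdia3*, the partner of calreticulin in glycoprotein folding, was at 12.42, 11.45 and 12.30 in PU.1-deficient pools and 12.33, 11.53 and 11.45 in wild-type pools (0.29, adjusted p = 0.712). *Pdia4* had 0.48 (adjusted p = 0.463) and *Pdia6* -0.15 (adjusted p = 0.741), with overlap in both. *Pdia2* was undetected in the PU.1-deficient pools and detected in 1 wild-type pool, and no fold change is given.

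Promoter sequence was searched for the ER stress response element (ERSE), which binds NF-Y at CCAAT and ATF6 at CCACG and was searched as CCAAT and CCACG with 9 bases between them. RefSeq windows of 250 bases before to 50 bases after the gene start (GRCm38.p6) were at hand for 50 of the 57 members, and both strands were read. The element was present in 4 of the 50 (8%), *Hspa5*, *Hsp90b1*, *Calr* and *Pdia6*, against 37 of 27025 genes (0.137%). Of these, *Hspa5*, *Hsp90b1* and *Calr* were put in the rule as single genes, and only *Pdia6* entered with its family. The share therefore depends on that choice of genes and is no test of the members for the element. None of the 7 members that were higher held it. None of these 4 passed the test. Of 70 related genes with a window 4 held the element. Of these, *Dnajc3* was higher and is described below. The other holders did not pass the test. *Creld2* had a log2 fold change of 0.09 (adjusted p = 0.93), *Ero1b* 1.07 (adjusted p = 0.259) and *Syvn1* 0.59 (adjusted p = 0.178). The sites of the members and of *Dnajc3* are shown to set the letters beside their values, with the fixed letters of the element in capitals:
*Hspa5* (chr2:34772021-34772047, plus strand): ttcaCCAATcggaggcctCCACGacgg
*Calr* (chr8:84847071-84847097, plus strand): tgggCCAATgagggtcgaCCACGcgtt
*Hsp90b1* (chr10:86705634-86705660, minus strand): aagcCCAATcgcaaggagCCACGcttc
*Hsp90b1* (chr10:86705529-86705555, plus strand): ctcaCCAATcgtgcctcaCCACGcact
*Pdia6* (chr12:17266487-17266513, plus strand): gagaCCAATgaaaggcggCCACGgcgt
*Dnajc3* (chr14:118937823-118937849, plus strand): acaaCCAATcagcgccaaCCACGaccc
A match is a description of the letters and not evidence of binding. TGACGTGG, the core of the element bound by XBP1 and ATF6, was found in 5 of 50 members (10%), *Copb1*, *Copb2*, *Sec16b*, *Sec23a* and *Sec24d*, against 0.714% of all genes. Its end, CGTGG, is the reverse complement of the CCACG of the ERSE. *Sec24d* was the only one of the 7 higher members with a match to either element, shown with the core in capitals:
*Sec24d* (chr3:123267460-123267487, plus strand): cccgggcgccTGACGTGGcactagcaac
The PU.1 motif GAGGAAGT was found in 1 of 50 members, *Srp72* (2%), against 3.69% of all genes, and the C/EBP palindrome TTGCGCAA in 0 members, against 0.207% of all genes. An absent match says only that these letters are not in the window.

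Export from the ER was described by 9 members of the COPII coat and its scaffold, of which 1 was higher, and the median log2 fold change of 0.11 was near 0. *Sec24d*, 1 of several cargo-binding subunits of the inner coat, had 8.44, 7.83 and 8.41 in PU.1-deficient pools, against 7.36, 6.63 and 7.09 in wild-type pools (log2 fold change 1.20, standard error 0.26, adjusted p = 0.0307). Its relatives differed from it in value. *Sec24b* was at 8.51, 7.96 and 8.50 in PU.1-deficient pools, against 8.78, 8.71 and 8.95 in wild-type pools (-0.49, standard error 0.21, adjusted p = 0.232), and *Sec24c* had 0.11 (adjusted p = 0.791). The outer coat subunit *Sec31a* had 0.33 with no overlap (adjusted p = 0.289). *Sec13*, its partner, overlapped, at 11.77, 11.86 and 12.00 in PU.1-deficient pools and 11.84, 11.93 and 11.93 in wild-type pools (-0.02, adjusted p = 0.961). The scaffold of the exit sites, *Sec16a* (0.13) and *Sec16b* (0.02), overlapped between the genotypes.
*Sec22b*, a SNARE that fuses vesicles between the ER and the Golgi, was at 10.88, 10.60 and 10.83 in PU.1-deficient pools, against 10.18, 9.999 and 10.08 in wild-type pools (0.69, standard error 0.17, adjusted p = 0.0477). Its second probe gave 0.77 and did not pass (adjusted p = 0.0854). *Sec22c*, a relative of *Sec22b*, had 7.85, 7.90 and 7.77 in PU.1-deficient pools, against 6.34, 7.01 and 6.98 in wild-type pools (1.07, standard error 0.22, adjusted p = 0.0253), and all 3 of its probes passed. The PU.1-deficient pools of *Sec22c* lay close together, while wild-type pool 1 was apart from the others. *Sec22a* had 0.16 (adjusted p = 0.938).
The p24 proteins are membrane cargo receptors of the early secretory pathway that travel in both coats. Of 6 members 1 was higher. *Tmed3* was at 11.74, 11.26 and 11.40 in PU.1-deficient pools, against 9.52, 8.79 and 9.15 in wild-type pools. The gap between the genotypes exceeded the spread within either (2.31, standard error 0.24, adjusted p = 0.00144). Its other probe, at 11.21, 9.39 and 10.93 in PU.1-deficient pools and 9.54, 7.95 and 8.02 in wild-type pools, gave a similar value with a wider spread (2.00, standard error 0.58, adjusted p = 0.0848). *Tmed9* was at 12.46, 12.67 and 12.54 in PU.1-deficient pools, against 12.12, 12.18 and 12.25 in wild-type pools, with no overlap (0.38, adjusted p = 0.235). *Tmed10* (0.23), *Tmed4* (0.06) and *Tmed8* (-0.05) overlapped.

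Retrieval to the ER was described by 8 members of the COPI coat, all with a log2 fold change above 0 and with a median of 0.38, of which 1 was higher. *Copz2*, which encodes the less widely expressed form of the zeta subunit, was at 7.87, 7.36 and 8.07 in PU.1-deficient pools, against 6.38, 6.54 and 6.55 in wild-type pools (1.28, standard error 0.22, adjusted p = 0.0115). Of its 4 probes 3 passed and the other gave 0.89 (adjusted p = 0.124). *Copz1*, the general form of the subunit, had 0.14 (adjusted p = 0.712), with overlap. *Cope* was at 11.95, 12.49 and 12.01 in PU.1-deficient pools, against 11.54, 11.73 and 11.68 in wild-type pools (0.50, adjusted p = 0.205). None of the 4 probes of *Cope* passed, and they gave 0.50 to 0.69. *Copa* (0.43, adjusted p = 0.178) and *Copb1* (0.49, adjusted p = 0.261) also had no overlap, while *Copb2* (0.11) and *Copg1* (0.15) did overlap. Of the members matched by name only, *Sec14l1* had 0.75 (adjusted p = 0.19), although 1 of its 3 probes was higher (1.17, adjusted p = 0.0312), and *Sec14l2* had -0.35 (adjusted p = 0.396).

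For 8 members the pools of a genotype differed by more than an SD of 0.5 on the log2 scale. They were *Copg2*, *Sec23ip*, *Sec23a*, *Calr*, *Tmed2*, *Pdia3*, *Sec22a* and *Srp54a*, whose probe may not separate it from its near-identical copies *Srp54b* and *Srp54c*. Of these, *Copg2*, *Sec23ip*, *Sec23a*, *Sec22a* and *Srp54a* were not detected in every pool, so their low values lie close to background. The pattern was shared: in 7 of the 8 PU.1-deficient pool 2 was the lowest of its genotype, and in 8 of 8 wild-type pool 1 was the highest of its genotype, with both in 7. *Tmed2*, a p24 receptor, was at 9.42, 6.38 and 8.33 in PU.1-deficient pools and 8.93, 5.61 and 5.59 in wild-type pools (1.34, standard error 1.05, adjusted p = 0.553). *Copg2*, a form of the gamma subunit of COPI, was at 8.17, 5.16 and 7.58 in PU.1-deficient pools and 8.05, 5.72 and 6.16 in wild-type pools (0.33, adjusted p = 0.889). Both had wild-type pool 1 near the high PU.1-deficient pools. Probes of the same gene differed in it. The probe used for *Tmed4* was at 9.88, 9.85 and 9.92 in PU.1-deficient pools and 9.69, 9.88 and 9.92 in wild-type pools, whereas another *Tmed4* probe was at 7.93, 4.47 and 7.17 in PU.1-deficient pools and 8.13, 5.32 and 5.50 in wild-type pools. Over all 1155 genes with such a spread, PU.1-deficient pool 2 was lowest in 587, wild-type pool 1 was highest in 618, and both held in 556. PU.1-deficient pool 2 had the lowest mean intensity of the arrays (262.8) and the fewest probes detected (15639). Wild-type pool 1 had the most probes detected (18174), with a mean intensity of 435. The cause of the pattern was not tested. With both of these pools left out, an alternative chosen after seeing the data, 19 members (33.3%) were higher and 0 lower, beside 12.3% of all genes that were higher in that setting, and the median log2 fold change was 0.36.

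**Figure D4:**
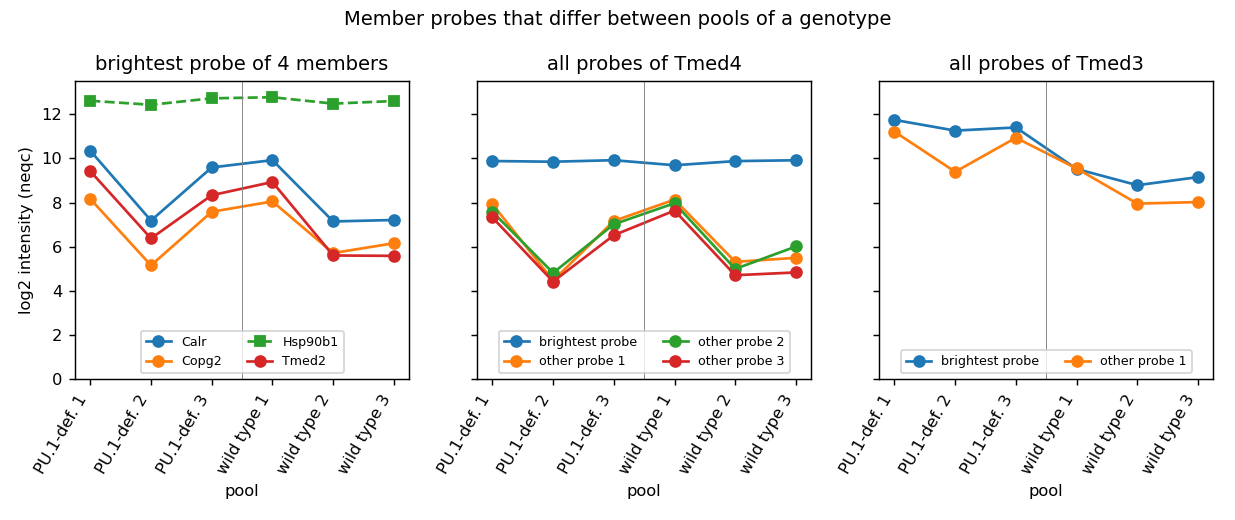
Log2 intensity after neqc normalization (vertical axis) by pool (horizontal axis, PU.1-deficient left of the grey line, wild type right of it) for the brightest probe of *Calr*, *Copg2*, *Hsp90b1* and *Tmed2*, and for all probes of *Tmed4* and *Tmed3*. Lines join the values of 1 probe and carry no order of pools. The probes of *Calr*, *Copg2* and *Tmed2* and 3 of the 4 *Tmed4* probes share a low PU.1-deficient pool 2 and a high wild-type pool 1, while *Hsp90b1* and the brightest *Tmed4* probe vary little.

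Among 81 genes of related ER pathways outside the naming rule, 6 were higher (7.41%, beside 6.61% of all genes). Only 1 was lower, beside 5.59% of all genes. A log2 fold change above 0 was found in 67 (82.7%, beside 45.8% of all genes), and the median was 0.27, against -0.04 for all genes. The calls were in the lists of the unfolded protein response with ER-associated degradation (4 higher and 0 lower of 18) and of other chaperones and oxidative folding (2 higher and 1 lower of 20). No gene passed among 9 oligosaccharyltransferase genes, 8 targeting genes and 26 genes of ER-to-Golgi traffic, of which 24 had a positive value.
*Xbp1*, the transcription factor that is spliced during ER stress, was at 12.54, 12.60 and 12.34 in PU.1-deficient pools, against 11.16, 11.10 and 11.18 in wild-type pools (log2 fold change 1.34, standard error 0.16, adjusted p = 0.00269). *Ern1*, the kinase and nuclease that splices it, averaged 9.93 ± 0.12 in PU.1-deficient pools and 9.04 ± 0.09 in wild-type pools, with no overlap (SD, n = 3 each, log2 fold change 0.89, standard error 0.16, adjusted p = 0.0151). The array does not tell spliced from unspliced *Xbp1*. *Sel1l* and *Os9*, which deliver misfolded proteins to degradation, had values of 1.27 and 0.93 (adjusted p = 0.011 and 0.0203). The other 14 genes of this list of 18 did not pass, and 13 of the 18 values were above 0. Those 14 ran from *Ppp1r15a* at -0.83 (adjusted p = 0.369) to *Trib3* at 0.80 (adjusted p = 0.281). Between them were *Atf4* at -0.08 (adjusted p = 0.864), *Atf6b* at -0.04 (adjusted p = 0.956) and *Ddit3* at 0.13 (adjusted p = 0.823). *Herpud1* at 0.51 (adjusted p = 0.205) and *Derl2* at 0.52 (adjusted p = 0.121) had no overlap between the genotypes.
In folding, *Dnajc3*, a co-chaperone of BiP, was at 9.41, 9.59 and 9.29 in PU.1-deficient pools, against 8.36, 8.29 and 8.41 in wild-type pools (1.08, standard error 0.17, adjusted p = 0.00735). *Erp44*, which retains unfinished proteins in the early secretory pathway, had 0.89 (adjusted p = 0.0405). *Prdx4*, the peroxidase of the ER, went the other way, at 7.96, 8.65 and 9.24 in PU.1-deficient pools, against 11.03, 11.21 and 11.15 in wild-type pools (-2.51, standard error 0.31, adjusted p = 0.00307). *Prdx4* lies on the X chromosome.
*Xbp1* and *Prdx4* kept their calls in all 16 alternatives, and that of *Dnajc3* ended only with scaling to equal medians (adjusted p = 0.109). Of the 81 related genes 2 were lower without PU.1-deficient pool 2. The number higher was 3 when PU.1-deficient pool 1 was left out, beside 4.31% of all genes. It was 2 when wild-type pool 2 or wild-type pool 3 was, beside 3.98% and 3.77% of all genes. The call of *Ern1* and that of *Os9* ended without each of these 3 pools (adjusted p up to 0.0832 and 0.103), that of *Sel1l* without either wild-type pool (up to 0.0632), and that of *Erp44* without any pool but wild-type pool 1 (up to 0.133). With scaling to equal medians *Xbp1* was the only related gene higher, so the calls of *Ern1*, *Os9*, *Sel1l* and *Erp44* ended there too.

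**Figure D5:**
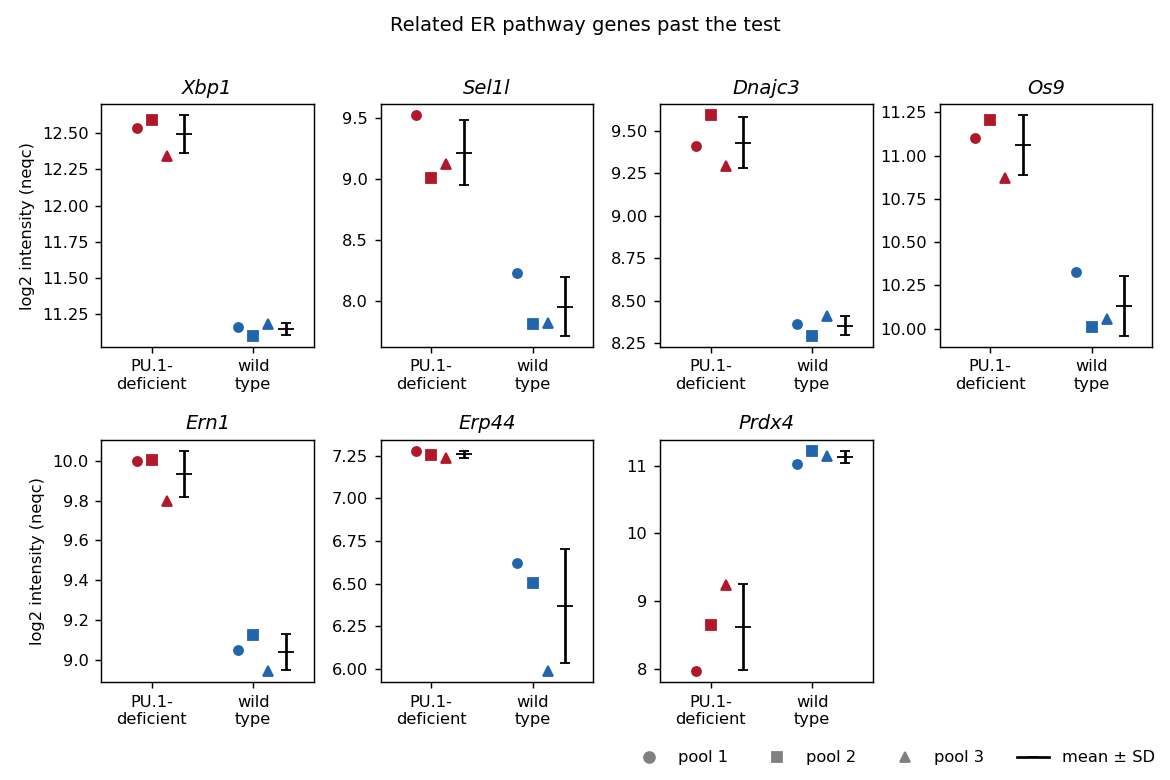
Log2 intensity after neqc normalization (vertical axes, each with its own range) of the 7 related ER pathway genes that passed the test, with 3 PU.1-deficient pools on the left and 3 wild-type pools on the right of each panel, and the mean ± SD as bars. In 6 panels the PU.1-deficient pools lie above the wild-type pools, and for *Prdx4* below them.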

How the data were processed

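RNA of 6 pools of LSK cells was hybridized to Illumina MouseWG-6 v2.0 BeadChips, 1 array per pool. The authors deposited linear intensity values that were not normalized, each with a detection p-value, and a table of log2 values background corrected and quantile normalized with neqc of limma. The headings of intensity and detection p-value were exchanged in the deposited table and were assigned from their values. The tool limma is named in the submitters' processing notes without a version. Here the intensities were processed with neqc (limma 3.58.1, R 4.3.3, offset 16, background inferred from detection p-values), and no value lay more than 0.026 from the authors' log2 value of that probe. The 22119 of 45281 probes detected on 1 or more arrays (detection p under 0.05) entered the lmFit and eBayes test, with genotype as the only factor and Benjamini–Hochberg adjustment over all probes. A gene was represented by its probe with the highest mean in the authors' table. Names came from the platform annotation (16557 probes listed, of which 9 with several genes were left out). All 57 members had a tested probe, with 99 of their 100 probes tested. The fit was tested on simulated data with independent noise for each probe and array, so patterns shared by many probes of a pool were not covered.

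Members, lists and tests were chosen with earlier results of these data known. Values were named by rule: members and related genes past the test, the chaperones *Hspa5*, *Hsp90b1* and *Calr*, in each role group the member with the most intense probe and the member with the largest difference among those that did not pass, and members whose call or probes disagreed. Some other members and related genes that did not pass, such as *Srp72*, *Tmed8*, *Atf4* and *Creld2*, were given outside this rule. Replicates are pools. The p-values and standard errors come from limma, which moderates the spread between pools of each probe toward that of all probes. Promoter windows came from RefSeq (GRCm38.p6), and the array files name no genome build, so no coordinates of probes are given. The alternatives were other scaling, background, offset and detection settings, the authors' log2 values, a replicate block, array weights, the mean of all probes of a gene, an FDR of 0.01 and leaving out each pool.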

Additional observations from a re-analysis of the deposited data

How the results depend on the processing

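The members higher, 7 in the reported setting, numbered 1 with scaling to equal medians, 13 with no background correction, 25 with array weights, 11 with the mean of all probes of a gene, 1 at an FDR under 0.01 and 19 with PU.1-deficient pool 2 and wild-type pool 1 both left out, and ranged from 1 to 7 with 1 pool left out. In these 6 settings the share higher was 1.75%, 22.8%, 43.9%, 19.3%, 1.75% and 33.3% of the members, against 3.32%, 7.63%, 14.9%, 7.77%, 3.69% and 12.3% of all genes, so the members' share was below that of all genes with scaling to equal medians and at an FDR under 0.01. The members lower numbered 1 (*Sec61a2*) with array weights and 0 otherwise. Their median log2 fold change of 0.35 was 0.17 with scaling to equal medians and 0.25 with no background correction, and ranged from 0.26 to 0.42 with 1 pool left out. Over all genes, 54.2% of the genes called were higher, against 35.6% with scaling to equal medians and 39% with array weights. The related genes higher, 6 of 81 in the reported setting, numbered 1 with scaling to equal medians, 12 with no background correction, 10 with an offset of 50, 31 with array weights, 13 with the mean of all probes, 2 at an FDR under 0.01 and 24 with both pools left out, and 2 to 8 with 1 pool left out. In the same order 3.32%, 7.63%, 7.28%, 14.9%, 7.77%, 3.69% and 12.3% of all genes were higher, and 3.77% to 5.88% with 1 pool left out. The related genes lower, 1 in the reported setting, numbered 5 with array weights and 5 with both pools left out, and 1 to 2 with 1 pool left out. The causes were not tested.

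Signs of members that did not pass the test turned in some settings. *Hsp90b1* gave 0.13 with array weights, 0.13 with both pools left out and -0.0965 to 0.0497 with 1 pool left out. *Sec13* gave 0.0469 with array weights and -0.0876 to 0.0293 with 1 pool left out. *Srp14* gave -0.11 with scaling to equal medians, -0.000855 with both pools left out and -0.0216 to 0.147 with 1 pool left out. With 1 pool left out *Copg2* ranged from -0.27 to 1.23, *Sec22a* from -0.51 to 0.75 and *Sec23ip* from -0.22 to 0.94. Without the detection filter the calls of *Pdia5*, *Sec24d* and *Sec61b* ended, and 5 members were higher.

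The pool numbers are not stated to pair the samples, and the correlations of deviations of same-numbered pools were 0.72, 0.61 and -0.15. With the replicate block 10 members (17.5%) and 17 of the 81 related genes were higher, beside 9.25% of all genes in that setting. Signals close to background limit the values of the 8 members not detected in all 6 pools.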
